A study of Rattus norvegicus with 29 samples.

Results

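The miR-106b, miR-93 and miR-25 cluster is a group of 3 microRNA (miRNA) hairpins that lie close together inside the gene Mcm7. Its members were taken by name: every entry of the deposited count table whose stem is miR-106b, miR-93 or miR-25, from either arm of the hairpin. This gave 6 of the 754 miRNAs in the table: rno-miR-106b-5p, rno-miR-106b-3p, rno-miR-93-5p, rno-miR-93-3p, rno-miR-25-5p and rno-miR-25-3p, written below without the species prefix. The counts came from small RNA sequencing of plasma drawn from the tail vein of 29 adult male Sprague-Dawley rats, 48 h after surgery. Of these, 10 were sham rats, anesthetized and operated on but not injured, and 19 had a traumatic brain injury (TBI) by lateral fluid percussion. Month-long video-EEG much later in the study divided the injured rats into 9 with epilepsy (TBIE) and 10 without epilepsy (TBIN). The rats came from 3 sites: UEF (4 sham, 4 TBIN and 4 TBIE), Monash (3 sham, 3 TBIN and 2 TBIE) and UCLA (3 sham, 3 TBIN and 3 TBIE). Plasma is what stays in solution when blood cells are spun down. A level here can hold RNA released by tissues and blood cells as well as RNA of cells or platelets left in the plasma, and these cannot be told apart.

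A miRNA guides an Argonaute protein to messenger RNAs that pair with its seed, the short stretch near its 5′ end, and those messengers are then repressed. The cluster sits in an intron of Mcm7, which encodes a subunit of the helicase that opens DNA for replication, and it is a paralog of the miR-17 to miR-92a cluster. Its miRNAs are known for repressing brakes on cell division and cell death such as p21 and Bim, for a part in the growth of neural progenitor cells, and for being plentiful in red blood cells.

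RefSeq (build GRCr8) held the mature sequence of all 6 members, on the minus strand of chromosome 12 within a span of 472 bases, chr12:22156652-22157123. The sequences of the members and of the closest relatives are given because the seed sets which messengers a miRNA can bind and because near-identical sequences are easily confused in counting. Capitals mark the seed, bases 2 to 8. The first set holds the members and relatives with the seed AAAGUGC:
miR-106b-5p: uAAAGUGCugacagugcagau
miR-93-5p: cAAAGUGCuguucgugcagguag
miR-17-5p: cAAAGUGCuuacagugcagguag
miR-20a-5p: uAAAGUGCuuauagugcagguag
miR-20b-5p: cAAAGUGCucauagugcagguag
The next set holds miR-25-3p and the relatives with its seed AUUGCAC:
miR-25-3p: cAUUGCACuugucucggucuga
miR-92a-3p: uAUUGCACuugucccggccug
miR-92b-3p: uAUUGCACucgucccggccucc
miR-363-3p: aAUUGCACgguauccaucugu
miR-32-5p: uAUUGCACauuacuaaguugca
The remaining arms of the 3 hairpins have seeds of their own:
miR-106b-3p: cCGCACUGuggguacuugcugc
miR-93-3p: aCUGCUGAgcuagcacuucccga
miR-25-5p: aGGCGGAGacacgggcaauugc

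miR-106b-5p and miR-93-5p therefore share a seed, while miR-25-3p belongs to the seed family of miR-92a-3p. Of the 754 miRNAs in the table, 674 had a mature sequence in RefSeq. Among those, no miRNA outside the cluster carried the seed of miR-106b-3p, miR-93-3p or miR-25-5p. Counted from the first base, miR-106b-5p has the same base as miR-17-5p at 18 of its 21 positions, and the same base as miR-93-5p at 16. How reads were assigned between such relatives is not given in the sources used here.

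The total miRNA count per rat ran from 1162307 to 5223469, with a median of 2713557. The members were well covered at this depth, with at least 10 counts of each in 29 of 29 rats. The lowest count of any member in any rat was 102, for miR-106b-5p. Together the 6 members made up 0.729% to 3.65% of a rat's counts, with a median of 2.27%. Levels below are CPM, counts scaled to a common library size after TMM correction, which allows for the few miRNAs that take up much of a total. A read covers a whole mature miRNA, so counts of different miRNAs need no correction for length. How efficiently each sequence enters a library was not measured.

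The cluster was unequal in plasma. miR-25-3p was the most abundant member, place 13 of 754 by mean share, with 1.40% of the counts. miR-93-5p followed at place 27 with 0.738%. miR-106b-3p stood at place 78 with 0.0753%. These were the 3 arms with the most counts, and for miR-106b it was the 3p arm rather than the 5p arm that carries the shared seed. The minor arms miR-93-3p (0.0225%) and miR-25-5p (0.0168%) came next. miR-106b-5p was lowest with 0.0104%, at place 203.

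This order was nearly the same in every rat. miR-25-3p had more counts than miR-93-5p in 29 of 29 rats, by a median of 1.85-fold. miR-93-5p exceeded miR-106b-3p in 29 of 29 rats, by 10.4-fold. miR-106b-3p exceeded miR-93-3p in 29 of 29 rats, by 3.21-fold. The lower places were less fixed. miR-93-3p was above miR-25-5p in 28 of 29 rats, by 1.40-fold, and miR-25-5p was above miR-106b-5p in 24 of 29 rats, by 1.85-fold. For this last pair the mean log2 ratio of 0.72 was close to its SD of 0.59, so these neighbours differed by little more than their spread.

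The members also differed in how much they varied. Over the 29 rats the SD of log2 CPM was 0.79 for miR-106b-3p, 0.63 for miR-25-3p and 0.60 for miR-93-5p. It was 0.49 for miR-25-5p, 0.43 for miR-93-3p and 0.35 for miR-106b-5p. After TMM correction miR-106b-5p was among the steadiest miRNAs of the table, at place 729 of 754 when ordered from the most variable. This order turned over with the scaling. With totals alone miR-106b-5p had the highest SD of the 6 members, 0.68 (place 507), against 0.64 for miR-106b-3p and 0.50 for miR-93-5p.

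**Figure D1:**
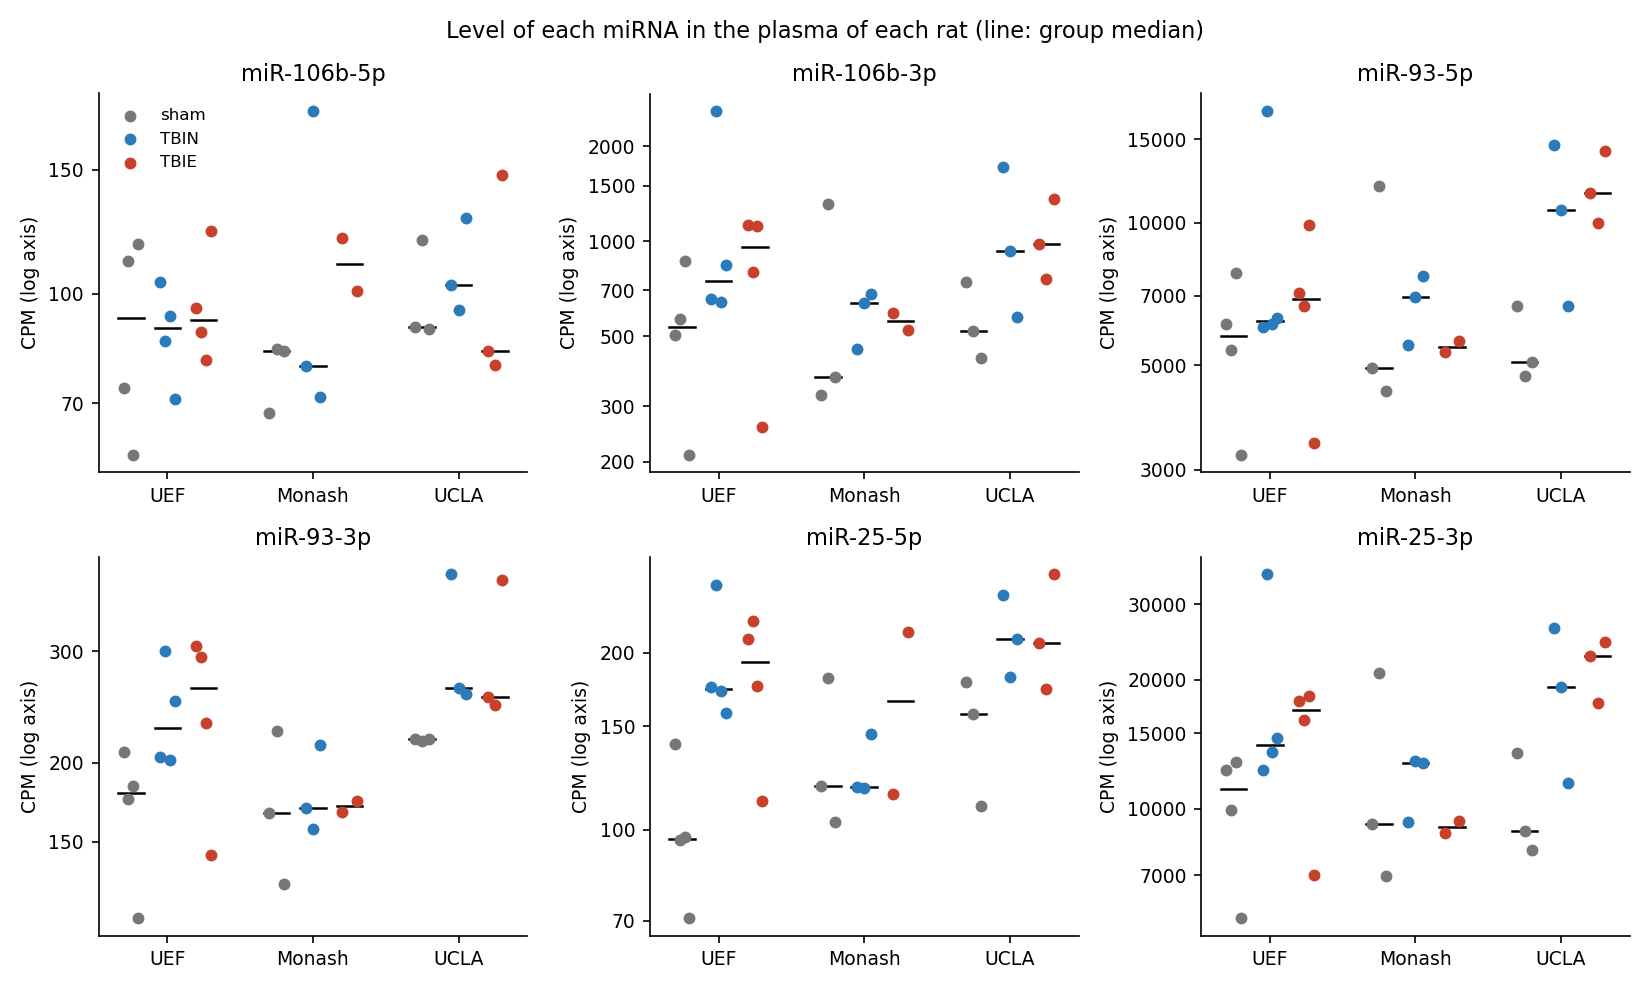
Level of each member in CPM on a log axis, with 1 point per rat, grouped by site and colored by condition (sham, TBIN, TBIE), and a line at each group's median. The range of miR-25-3p is 5556 to 35233 CPM and that of miR-106b-5p is 59.2 to 182 CPM, and at UEF the highest point of miR-106b-3p, miR-93-5p, miR-25-5p and miR-25-3p is the same rat, UEF TBIN 2.

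Each hairpin gives 2 arms, of which usually the one loaded into Argonaute outlasts the other. The log2 ratio of 5p to 3p counts (0.5 added to each count) shows which arm had more counts, without any scaling between rats. Differences between the arms in library entry or read assignment stay in this ratio and were not measured. For miR-25 it ran from −7.08 to −5.44 with a median of −6.40. For miR-93 it ran from 4.45 to 5.84 with a median of 4.99, a 31.8-fold excess of the 5p arm. For miR-106b it ran from −4.91 to −0.84 with a median of −2.79. The arm with more counts was therefore the same in 29 of 29 rats for each hairpin: 3p for miR-25, 5p for miR-93 and 3p for miR-106b. The balance was loosest for miR-106b, whose SD of the log2 ratio was 0.90, against 0.37 for miR-93 and 0.38 for miR-25.

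Whether injury, later epilepsy or site moved the balance of the arms was asked with 15 two-sided exact permutation tests, in which labels were exchanged within site or within condition. For miR-106b the ratio in sham rats was −3.97 at the lowest, −2.30 at the median and −0.84 at the highest (n = 10). In TBI rats the corresponding values were −4.91, −3.21 and −1.07 (n = 19). The groups overlapped along most of their range, and 16 of 19 injured rats lay below the sham median. The difference of −0.44 between TBI and sham did not pass (exact permutation p = 0.222, Benjamini-Hochberg adjusted p = 0.778 over the 15 tests). Leaving out 1 rat at a time it ran from −0.64 (without Monash sham 2) to −0.22 (without UEF sham 4). The other 14 differences ran from −0.38 to 0.40 with adjusted p from 0.778 to 0.974 in the exact permutation tests, so no arm ratio passed in any comparison.

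**Figure D2:**
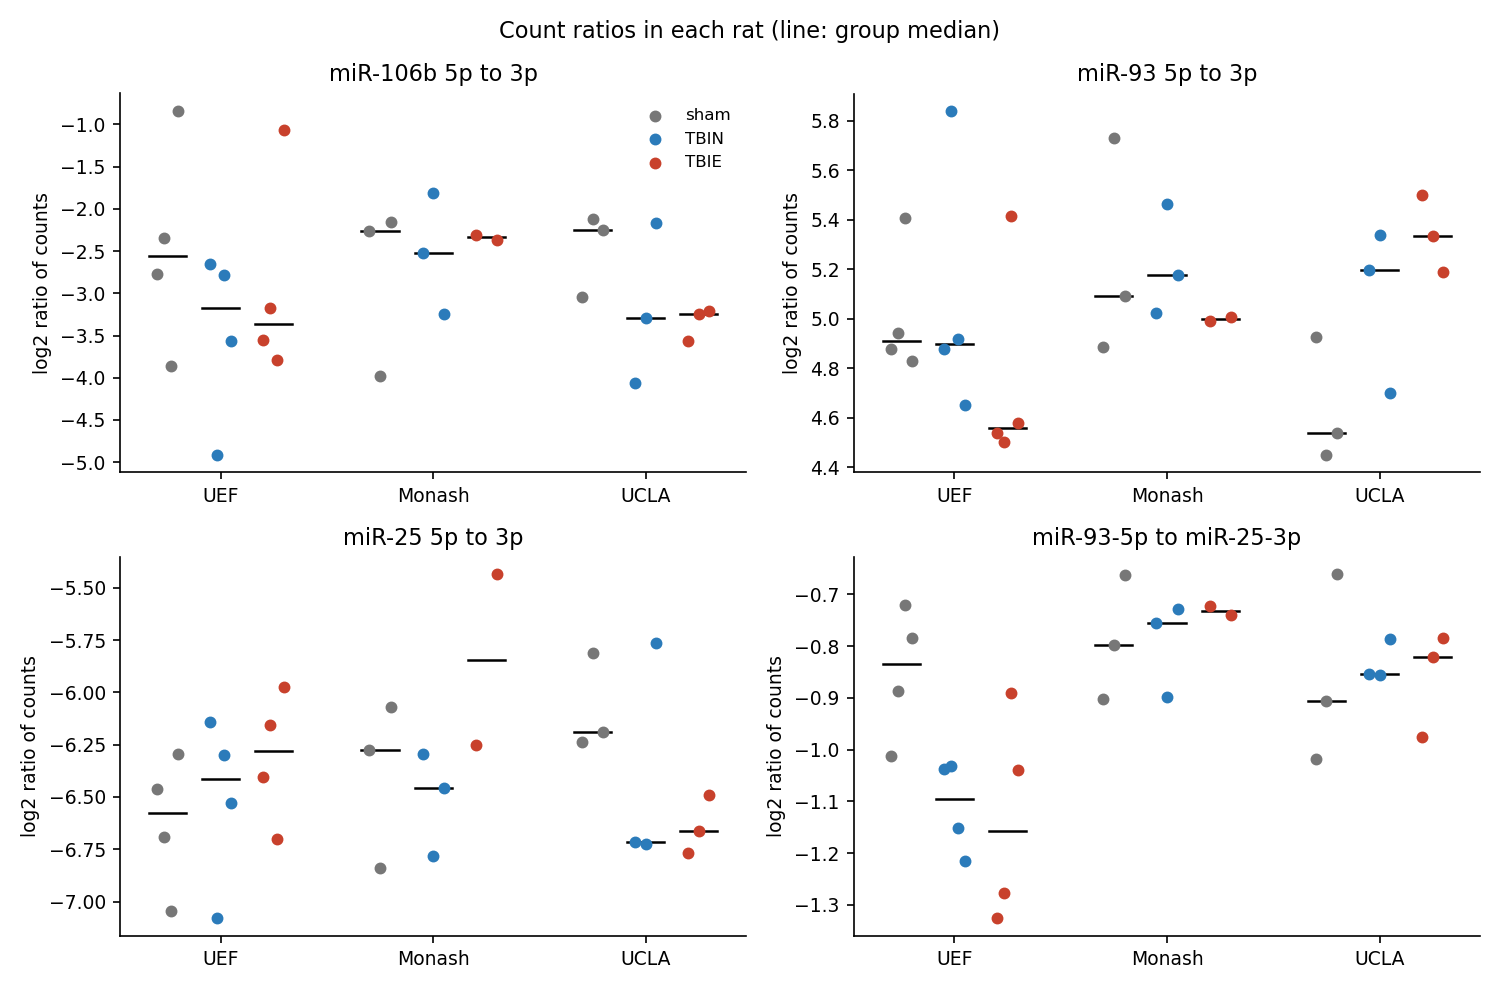
Log2 ratio of counts in each rat (1 point per rat, line at the group median) for the 5p to 3p arms of miR-106b, miR-93 and miR-25 and for miR-93-5p to miR-25-3p, by site and condition. The miR-106b ratio spreads from −4.91 to −0.84, and the ratio of miR-93-5p to miR-25-3p from −1.33 to −0.66.

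All but 1 of the members went up and down together from rat to rat. The highest Pearson correlation of log2 CPM between members was that of miR-25-3p with miR-93-5p (r = 0.96, Spearman rho = 0.94, n = 29). miR-25-3p with miR-106b-3p gave r = 0.95 (rho = 0.94). Among the 5 members other than miR-106b-5p the lowest was that of miR-93-5p with miR-25-5p, r = 0.73 (rho = 0.70). These correlations describe shared variation over 29 libraries that also share depth and scaling. For comparison, the median r over all 283881 pairs of miRNAs was −0.0084, and the 95th percentile was 0.54. Within sites, miR-25-3p with miR-93-5p gave r = 0.96 at UEF, 0.99 at Monash and 0.99 at UCLA.

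miR-106b-5p stood apart from the rest. Its r with the other members lay between −0.12, with miR-25-3p, and 0.052, with miR-25-5p. With miR-106b-3p, the other arm of its own hairpin, r was −0.11 (rho = −0.10, n = 29). Within the sites that pair gave −0.53 (UEF), 0.21 (Monash) and 0.15 (UCLA). This separation depended on the scaling. When counts were scaled to the total count alone, r of miR-106b-5p was 0.60 with miR-25-5p and 0.59 with miR-93-3p. It was 0.27 with miR-93-5p, 0.26 with miR-25-3p and 0.090 with miR-106b-3p. The r over all pairs of miRNAs was taken with TMM only, so these values have no such background beside them.

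**Figure D3:**
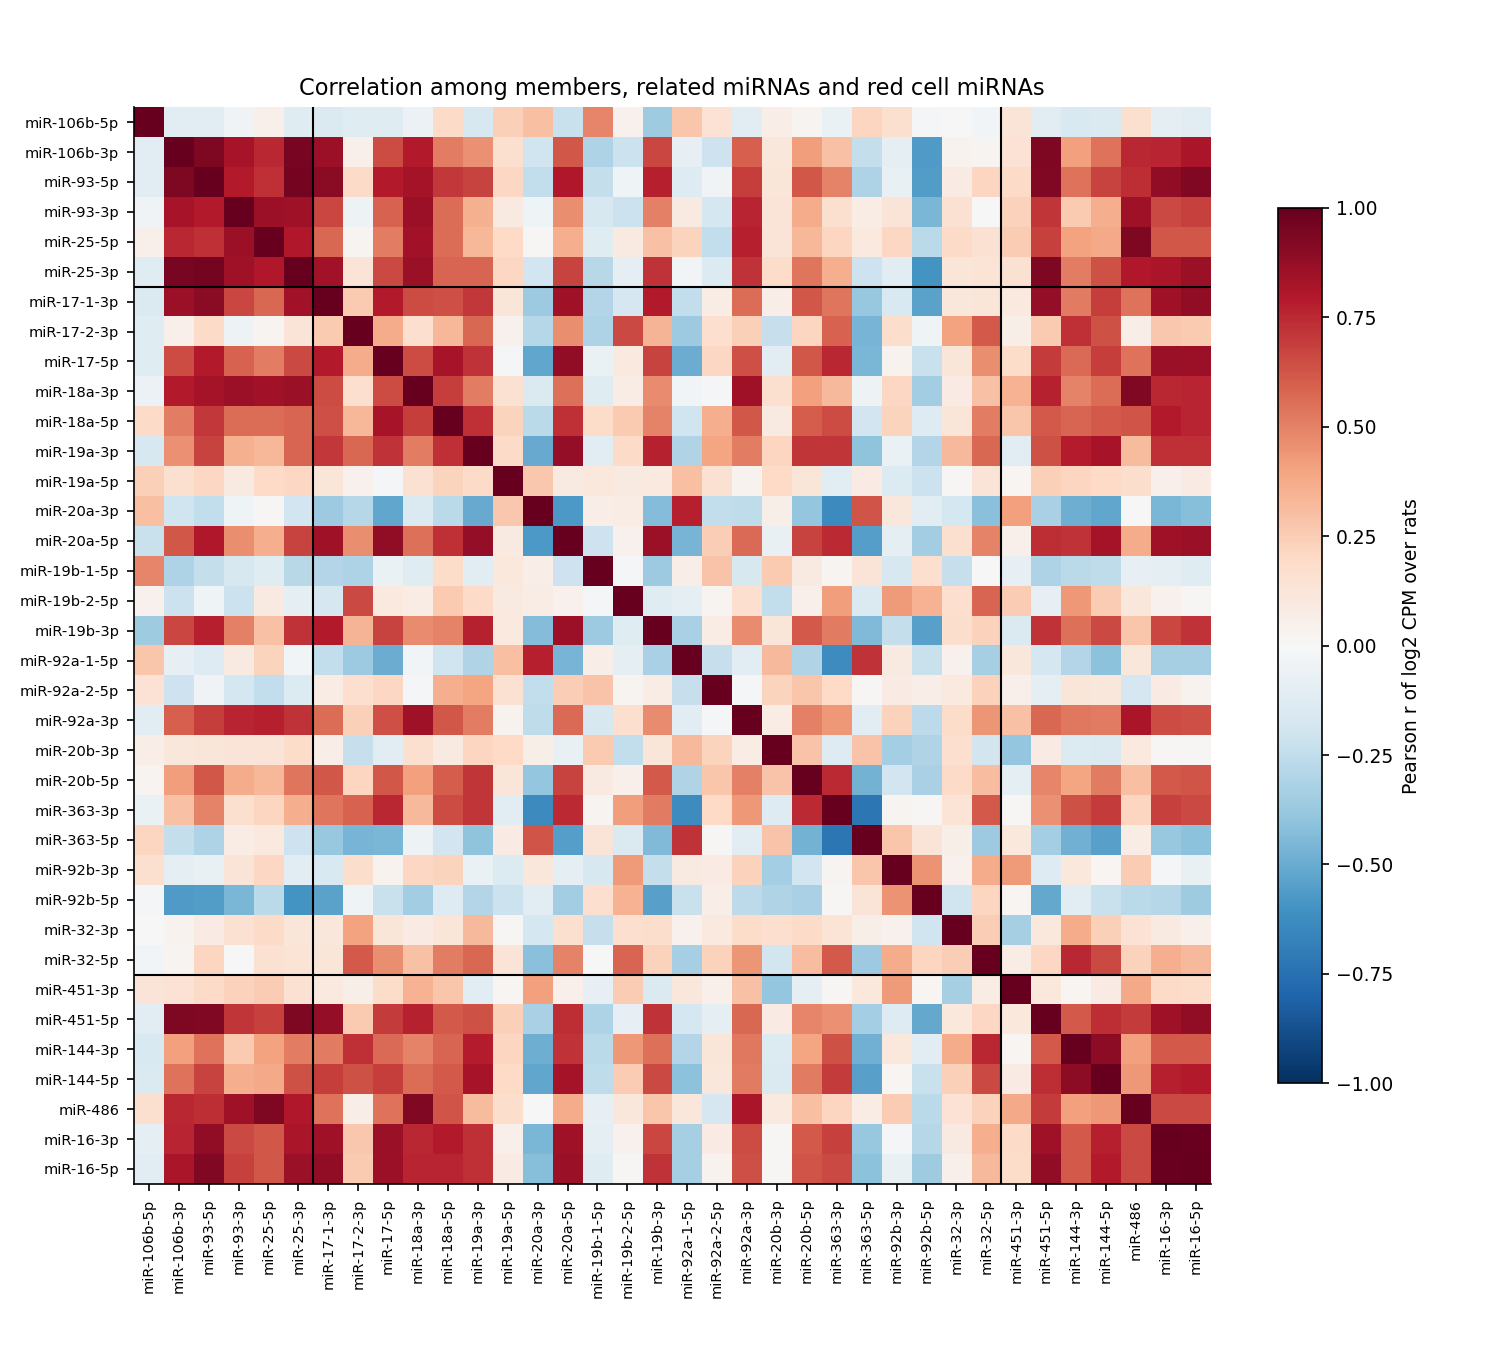
Pearson r of log2 CPM over the 29 rats (color scale from −1 to 1) among the 6 members, 23 related miRNAs and 7 red cell miRNAs, with black lines between the lists. Among the members the block without miR-106b-5p is red, with r from 0.73 to 0.96, whereas the line of miR-106b-5p is pale, with r from −0.12 to 0.052.

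The comparison of TBI with sham asks what injury did to the members in plasma. The median of the injured rats was higher than that of the sham rats for each of the 6 members. The fitted log2 fold changes, with site in the model, ran from 0.18 to 0.55. No member passed the test over all miRNAs, and the groups overlapped for each. The values follow for each hairpin, beginning with the most abundant.

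miR-25-3p, a repressor of the cell death factor Bim, was measured in sham rats at 5556 CPM at the lowest, 9580.25 at the median and 20766 at the highest (n = 10). In TBI rats it was 7032, 14616 and 35233 CPM (n = 19). The injured rats were shifted upwards with wide overlap: 15 of 19 lay above the sham median, while the highest sham rat, Monash sham 2, exceeded most injured rats. The means were 10799.7 ± 4346 CPM (SD, n = 10) in sham and 16323 ± 7053 CPM (n = 19) in TBI. The fitted log2 fold change was 0.52 (SE 0.24; 1.43-fold; adjusted p = 0.403 by the edgeR quasi-likelihood F test with Benjamini-Hochberg adjustment over 754 miRNAs).

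miR-25-5p, the rarer arm of the same hairpin, lay in sham rats at 70.7 CPM at the lowest, 114 at the median and 181 at the highest. In TBI rats it lay at 112, 176 and 272 CPM. Here 18 of 19 injured rats were above the sham median, although the upper sham rats still reached into the middle of the TBI range. The means were 125 ± 37.3 CPM (SD, n = 10) and 184 ± 49.4 CPM (n = 19). Its log2 fold change was 0.54 (SE 0.17; 1.46-fold; unadjusted p = 0.00399, place 24 of 754; adjusted p by edgeR = 0.126). It was the member nearest to the threshold of 0.05.

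miR-93-5p, which shares its seed with miR-17-5p and miR-20a-5p, ran in sham rats from 3228 to 11939 CPM with a median of 5224. In TBI rats it ran from 3421 to 17238 CPM with a median of 6947. All but 1 of the injured rats exceeded the sham median, yet both groups began at nearly the same level. Its log2 fold change was 0.43 (SE 0.24; adjusted p by edgeR = 0.562). Its partner miR-93-3p had a lowest, median and highest level of 113, 196 and 225 CPM in sham and 143, 247 and 397 CPM in TBI. Of the injured rats 14 of 19 exceeded the sham median, with a log2 fold change of 0.35 (SE 0.16; adjusted p by edgeR = 0.393).

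miR-106b-3p lay at 210 CPM at the lowest, 511 at the median and 1317 at the highest in sham rats. In TBI rats it lay at 258, 757 and 2591 CPM. It had the largest fold change of the members and the largest spread: 17 of 19 injured rats exceeded the sham median, with a log2 fold change of 0.55 (SE 0.30; adjusted p by edgeR = 0.552). Leaving out 1 rat at a time moved it between 0.43 and 0.87, highest without Monash sham 2 (adjusted p by edgeR = 0.0644), and that of miR-93-5p between 0.35 and 0.65, highest without the same rat (adjusted p by edgeR = 0.0795). miR-106b-5p was at 59.2, 86.4 and 119 CPM in sham and at 70.9, 94.8 and 182 CPM in TBI. These groups lay largely on top of each other, 12 of 19 injured rats exceeding the sham median, and the log2 fold change was 0.18 (SE 0.16; adjusted p by edgeR = 0.799).

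In this comparison edgeR called 9 of 754 miRNAs (1.19%; 5 higher and 4 lower in TBI) and 0 of the 6 members. At an unadjusted p under 0.05 there were 82 miRNAs, 3 of them members: miR-25-5p, miR-93-3p and miR-25-3p. DESeq2 called 25 miRNAs, among them 1 member, miR-25-5p (log2 fold change 0.51, adjusted p = 0.0499). Without the UEF rats edgeR called 0 miRNAs (30 at an unadjusted p under 0.05). It called 1 with TBIN rats alone against sham (72) and 2 with TBIE rats alone against sham (51). Leaving out 1 rat at a time its count ran from 5 to 16. Over all alternatives the adjusted p of miR-25-5p ranged from 0.0481 to 0.936. A single rat decided 2 calls: without Monash sham 2, the sham rat highest in both arms of miR-25, miR-25-5p (log2 fold change 0.66) and miR-25-3p (0.74) both passed, each with an edgeR adjusted p of 0.0481, and 16 miRNAs were called in all. The adjusted p of miR-25-3p ranged over the alternatives from 0.0481 to 0.989. The median log2 fold change was 0.47 over the members and 0.025 over all 754 miRNAs, of which 399 (52.9%) were above 0.

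The sites did not look alike. At UEF, miR-25-5p in the 4 sham rats was 70.7, 96.0, 97.1 and 139.9 CPM. In the 8 injured UEF rats it was 112 at the lowest, 175 at the median and 260.1 at the highest. All but the lowest injured rat were above all 4 sham rats, and the log2 fold change was 0.88 (SE 0.26; adjusted p by edgeR = 0.0510), just short of the threshold. Leaving out 1 rat at a time gave 0.74 to 1.19 and took it past the threshold for 11 of the 29 rats (UEF sham 1, TBIN 2 and TBIE 4; Monash sham 2, TBIN 2 and 3, TBIE 2; UCLA sham 3, TBIN 1, TBIE 1 and 3), the highest value being that without UEF sham 1. It also passed with upper-quartile normalization (0.92) and over miRNAs with 10 counts in each rat (0.86), and over all alternatives the adjusted p by edgeR ranged from 0.00933 to 0.145. At UCLA the 3 sham rats had 109.6, 157 and 178 CPM of miR-25-5p, and the 6 injured rats 173 at the lowest, 209 at the median and 272 at the highest. At Monash the 3 sham rats had 103, 119 and 181 CPM, and the 5 injured rats 115, 118, 118, 146 and 217 CPM. At UCLA 6 of 6 injured rats exceeded the sham median and the log2 fold change was 0.54, whereas at Monash the groups were interleaved and it was 0.085. Leaving out 1 rat at a time the Monash value ran from −0.12 to 0.39, so its sign was not fixed.

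The fitted values of the 3 abundant arms also differed in sign between sites. For miR-25-3p the log2 fold change was 0.73 at UEF and 1.01 at UCLA but −0.21 at Monash. For miR-93-5p it was 0.48, 1.04 and −0.19 in that order, and for miR-106b-3p 0.90, 0.91 and −0.22. The UEF value of miR-93-5p ran from 0.28 (without UEF sham 4) to 0.68 (without UEF sham 3). Despite the negative fitted values most injured Monash rats lay high: 4 of 5 for miR-25-3p, 5 of 5 for miR-93-5p and 5 of 5 for miR-106b-3p exceeded the median of the Monash sham rats. In the Monash plasma the sham rat 2 was the highest of its site for each of these, and without it the 3 Monash fold changes became 0.39, 0.42 and 0.74. miR-93-3p had 0.51 in the UEF plasma, 0.47 in that from UCLA and 0.022 in that from Monash, whereas miR-106b-5p was highest at Monash (0.50; UEF 0.034; UCLA 0.091), a value that was 0.25 without Monash TBIN 2. Apart from miR-25-5p at UEF, the adjusted p of the members within sites lay between 0.308 and 0.998 in edgeR.

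Scaling moved the values within sites. With totals alone as the scale, 5 members passed at UEF, miR-106b-5p being the exception, with log2 fold changes from 0.88 (miR-93-5p) to 1.34 (miR-106b-3p). Of all 754 miRNAs edgeR then called 46 there (6.10%; 38 higher and 8 lower), against 28 with TMM (3.71%; 9 higher and 19 lower). This scaling moved the whole table: the median log2 fold change of all miRNAs was 0.43 at UEF, 0.18 at Monash and −0.47 for UCLA, against 0.0093, 0.048 and 0.022 with TMM. Under that scaling the Monash values of miR-25-3p, miR-93-5p and miR-106b-3p turned positive (0.028, 0.053 and 0.10), and at UCLA those of miR-106b-5p and miR-93-3p turned negative (−0.42 and −0.060). The other UCLA values became smaller: 0.029 for miR-25-5p, 0.48 for miR-25-3p, 0.51 for miR-93-5p and 0.37 for miR-106b-3p. At UEF the 3 liver miRNAs, led by miR-122-5p, made up 30.7% to 57.9% of the counts of sham rats and 1.98% to 24.4% of those of injured rats. Their part in the members' values was not tested.

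Whether the effect of injury differed between the sites was tested by the interaction of site with injury. It was found for 7 of 754 miRNAs (0.928%) and for 0 of the 6 members by edgeR. At an unadjusted p under 0.05 there were 103 miRNAs and 0 members, and DESeq2 called 17 miRNAs and 0 members. The edgeR count of 7 was not settled. It ran from 0 to 10 on leaving out 1 rat at a time. With totals alone it was 15, and over miRNAs with 10 counts in each rat it was 3. The lowest adjusted p of a member was 0.399, for miR-25-3p, and the highest 0.714, for miR-106b-5p (edgeR quasi-likelihood F test with Benjamini-Hochberg adjustment). The difference between Monash and the other sites in the members' fold changes was thus not established.

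**Figure D4:**
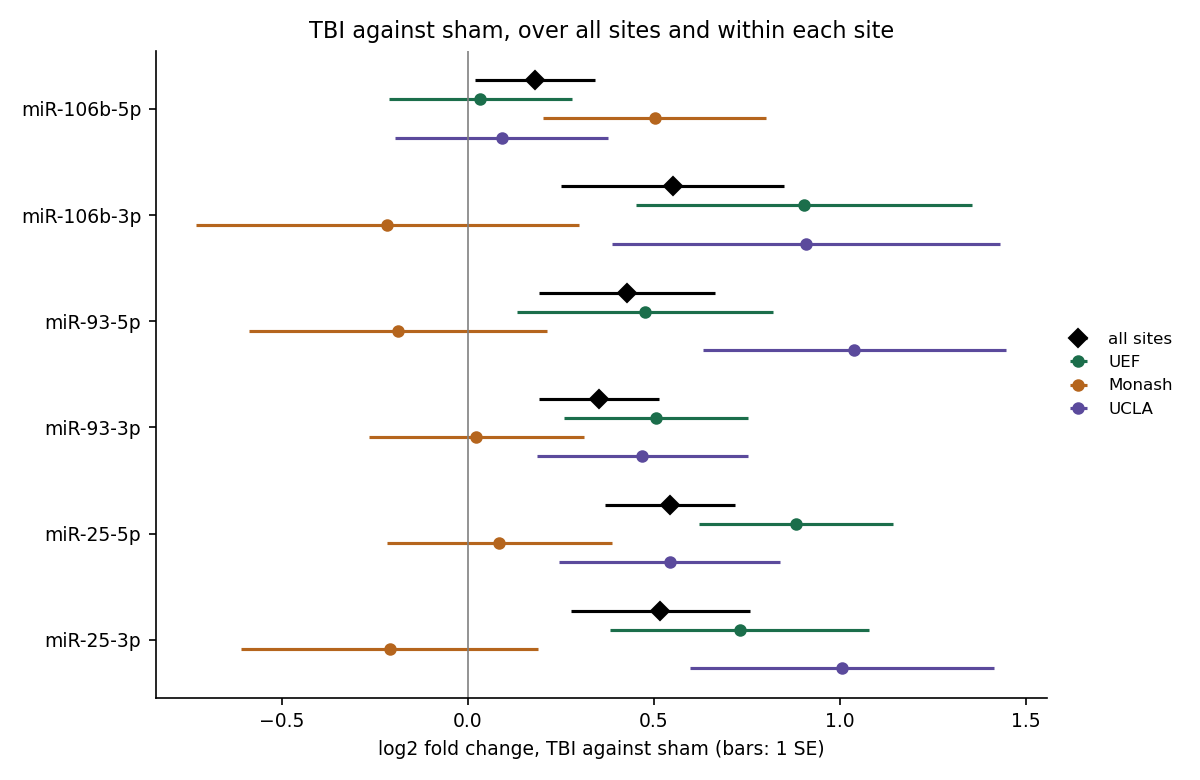
Log2 fold change of each member, TBI against sham, over all sites (black diamonds) and within UEF, Monash and UCLA (colored points), with bars of 1 SE and a line at 0. The black diamonds lie between 0.18 and 0.55, and the Monash points of miR-106b-3p, miR-93-5p and miR-25-3p lie left of 0, at −0.22, −0.19 and −0.21.

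The comparison of TBIE with TBIN asks whether the members at 48 h set apart rats that later developed epilepsy. They did not differ detectably. miR-25-3p in TBIN rats was 9309 CPM at the lowest, 13258 at the median and 35233 at the highest (n = 10). In TBIE rats it was 7032, 17624 and 24463 CPM (n = 9). The median was higher in TBIE but the range of TBIN enclosed most of that of TBIE, and the log2 fold change was −0.14 (SE 0.27; adjusted p by edgeR = 0.998). miR-25-5p had the highest value of the members, 0.076 (SE 0.20), with 7 of 9 TBIE rats above the TBIN median of 173 CPM, and miR-106b-3p the lowest, −0.24 (SE 0.34). The adjusted p was 0.998 for each member in edgeR. edgeR called 0 of 754 miRNAs (0%) and 0 of the 6 members, with 15 miRNAs and 0 members at an unadjusted p under 0.05, and DESeq2 called 0. The signs were not fixed: without UEF TBIN 2 the log2 fold changes of miR-106b-3p, miR-93-5p and miR-25-3p were 0.072, 0.058 and 0.064.

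The comparisons between sites ask how far the laboratories, which handled animals and plasma separately, differed in the members. UEF and Monash differed in 71 of 754 miRNAs (9.42%), UEF and UCLA in 69 (9.15%), and Monash and UCLA in 42 (5.57%), each with 0 of the 6 members by edgeR. At an unadjusted p under 0.05 these comparisons held 202, 150 and 149 miRNAs. The only member among these was miR-93-3p in Monash against UCLA. DESeq2 called 110, 90 and 60 miRNAs, the only member among them being the same one. The count for UEF and Monash was the least settled: edgeR called 33 with totals alone, 21 with scaling to miR-28-3p, 38 among sham rats alone and 0 among injured rats alone (105 at an unadjusted p under 0.05). Leaving out 1 rat at a time it ran from 34 (without UEF TBIN 4) to 116 (without Monash TBIE 2). Monash and UCLA ran from 23 (without UCLA TBIN 2) to 58, and UEF and UCLA from 54 to 79. For the members the log2 fold changes between sites ran from −0.60 (miR-93-3p, Monash against UCLA) to 0.35 (miR-106b-3p, UEF against Monash). The latter ran from 0.072 (without UEF TBIN 2) to 0.69 (without Monash sham 2) on leaving out 1 rat at a time. In Monash against UCLA miR-106b-3p, −0.43, reached −0.80 without Monash sham 2. Among sham rats alone each of the 6 members had the opposite sign in UEF against Monash, with miR-106b-3p at −0.35 and miR-25-5p at −0.43. In Monash against UCLA miR-106b-3p (0.26), miR-93-5p (0.37) and miR-25-3p (0.28) turned among sham rats, while miR-93-3p kept its sign.

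miR-93-3p came closest. Its level was 128 CPM at the lowest, 168 at the median and 225 at the highest at Monash (n = 8). At UCLA it was 216, 254 and 397 CPM (n = 9). The sites barely overlapped, and 8 of 8 Monash rats lay below the UCLA median. The log2 fold change of Monash against UCLA was −0.60 (SE 0.20; unadjusted p = 0.00471; adjusted p by edgeR = 0.0740). It passed with DESeq2 (−0.59, adjusted p = 0.0239), with upper-quartile normalization (−0.65, adjusted p = 0.0264) and when testing only miRNAs that reached 10 counts in each rat (−0.61, adjusted p = 0.0482). It also passed without Monash sham 2 (−0.68, adjusted p by edgeR = 0.0203) or without UCLA TBIE 1 (−0.60), and over all alternatives its adjusted p ranged from 0.0203 to 0.693.

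Arms from different hairpins of the cluster can also be compared with each other, which needs no scaling between rats. The log2 ratio of miR-93-5p to miR-25-3p counts was −1.33 at the lowest, −1.03 at the median and −0.72 at the highest at UEF (n = 12). At Monash it was −0.90, −0.75 and −0.66 (n = 8). At UCLA it was −1.02, −0.85 and −0.66 (n = 9). Of the UEF rats 11 of 12 lay below the Monash median, with overlap at the upper end. The mean was −1.03 at UEF and −0.78 at Monash. The difference of −0.25, taken within condition, passed the two-sided exact permutation test (p = 0.0025, Benjamini-Hochberg adjusted p = 0.0376 over the 15 tests of ratios between hairpins). These were adjusted apart from the 15 tests of arm ratios, and no adjustment over both sets together was made. The difference lay mainly in the injured rats, whose means were −1.12 at UEF (n = 8), −0.77 at Monash (n = 5) and −0.85 in the UCLA rats (n = 6). The sham means lay close together, −0.85 at UEF (n = 4), −0.79 at Monash (n = 3) and −0.86 in the UCLA rats (n = 3). Sham and injured rats were not tested apart.

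That call was narrow. The test held only the rats of UEF (n = 12) and Monash (n = 8), so leaving out a UCLA rat could not lose the call. Leaving out each rat in turn kept the difference between −0.28 and −0.23. For 13 of the UEF and Monash rats it raised the adjusted p of the exact permutation test above the threshold (UEF sham 1 and 2, TBIN 1 to 4, TBIE 2 and 4, and Monash sham 3, TBIN 1 and 3, TBIE 1 and 2). Over all alternatives the adjusted p ranged from 0.0190 to 0.0819. UEF against UCLA gave −0.18 (exact permutation p = 0.0167, adjusted p = 0.125), and without UCLA sham 1 −0.22 (adjusted p = 0.0343). Within UEF the ratio was −1.01, −0.89, −0.78 and −0.72 in the 4 sham rats, and −1.33, −1.10 and −0.89 at the lowest, median and highest in the 8 injured rats. At UEF the injured rats lay lower, 8 of 8 below the sham median, which was not so at Monash (1 of 5) or UCLA (1 of 6), and this difference between sites was not tested. Over all sites the difference of TBI from sham was −0.10 (exact permutation p = 0.0706, adjusted p = 0.353). The other 12 ratios tested, of miR-106b-5p to miR-93-5p or miR-25-3p in each comparison and of miR-93-5p to miR-25-3p in the remaining ones, had adjusted p of 0.555 or more in the exact permutation tests.

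Red blood cells are rich in miR-451 and poor in miR-23a, so the ratio of miR-451-5p to miR-23a-3p is used as a marker of hemolysis in plasma. On the log2 scale of counts it ran from −3.57 to −0.87 with a median of −2.38 (n = 29), below 0 in every rat. The ratio is used here as a measured value, and whether any sample was hemolyzed was not tested with these counts. Its mean was −2.86 ± 0.62 (SD, n = 10) in sham and −2.15 ± 0.61 (n = 19) in TBI. By site the mean of TBI less that of sham was 0.97 in the UEF rats, 1.08 in the UCLA rats and −0.079 in the Monash rats. Leaving out 1 rat at a time the UEF difference ran from 0.79 to 1.11 and the UCLA difference from 0.88 to 1.27. The Monash difference ran from −0.50 (without sham 3) to 0.52 (without sham 2), so its sign was not fixed. Without Monash sham 2 the difference in the ratio and the log2 fold changes of miR-25-3p, miR-93-5p and miR-106b-3p were all above 0 at each site.

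Across the 29 rats the members other than miR-106b-5p rose with this ratio. For miR-25-3p r was 0.83 and rho 0.80, each with a two-sided permutation p of 1e-05, the smallest these permutations can give (adjusted p = 0.00125 for r over 752 miRNAs). With TMM scaling no other of the 752 miRNAs had a higher r. For miR-93-5p r was 0.80 and rho 0.74 (permutation p = 1e-05 for each, adjusted p = 0.00125 for r, n = 29). For miR-106b-3p r was 0.78 (permutation p = 1e-05, adjusted p = 0.00125) and rho 0.74 (permutation p = 3e-05). In the plot of members against the ratio these 3 abundant arms form a band that rises from left to right, with Monash sham 2 and UEF TBIN 2 far along it.

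The minor arms followed with more scatter. For miR-25-5p r was 0.75 (permutation p = 1e-05, adjusted p = 0.00125, n = 29) and rho 0.75 (permutation p = 2e-05). For miR-93-3p r was 0.65 (permutation p = 1e-04, adjusted p = 0.00578) and rho 0.61 (permutation p = 0.00063). miR-106b-5p showed no such relation, with r = 0.12 (permutation p = 0.547, adjusted p = 0.942) and rho = 0.076 (permutation p = 0.691). Thus 5 of 6 members correlated positively, against 29 of 752 miRNAs (3.86%) in all. Another 5 of the 752 correlated negatively, and the median r was −0.023.

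The relation did not rest on the 2 rats farthest from the median ratio, UEF TBIN 2 and UCLA TBIN 1. Without them r was 0.75 for miR-25-3p, 0.70 for miR-93-5p, 0.68 for miR-106b-3p, 0.69 for miR-25-5p, 0.55 for miR-93-3p and 0.15 for miR-106b-5p. Within each site r was positive for each member. Taking UEF, Monash and UCLA in turn, r of miR-25-3p was 0.71, 0.93 and 0.94, and that of miR-93-5p was 0.67, 0.92 and 0.93. For miR-106b-3p it was 0.67, 0.89 and 0.96, for miR-25-5p 0.70, 0.72 and 0.87, and for miR-93-3p 0.55, 0.78 and 0.83. miR-106b-5p stayed at 0.039, 0.14 and 0.13. Among sham rats alone (n = 10) r was lower than over all rats for the 5 correlated members: 0.65 for miR-25-3p, 0.60 for miR-93-5p, 0.51 for miR-106b-3p, 0.63 for miR-25-5p and 0.37 for miR-93-3p. For miR-106b-5p it was 0.14. Among injured rats alone (n = 19) it was 0.84, 0.83, 0.86, 0.67, 0.65 and −0.067 in the same order. The r within sites and conditions was not tested. With totals alone as the scale the 3 abundant arms kept their calls, with r of 0.84 for miR-106b-3p, 0.80 for miR-25-3p and 0.80 for miR-93-5p. miR-25-3p was then no longer the highest. For miR-25-5p r fell to 0.45 (permutation adjusted p = 0.161) and for miR-93-3p to 0.39 (permutation adjusted p = 0.288). These 2 no longer passed, and r of miR-106b-5p was −0.059.

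**Figure D5:**
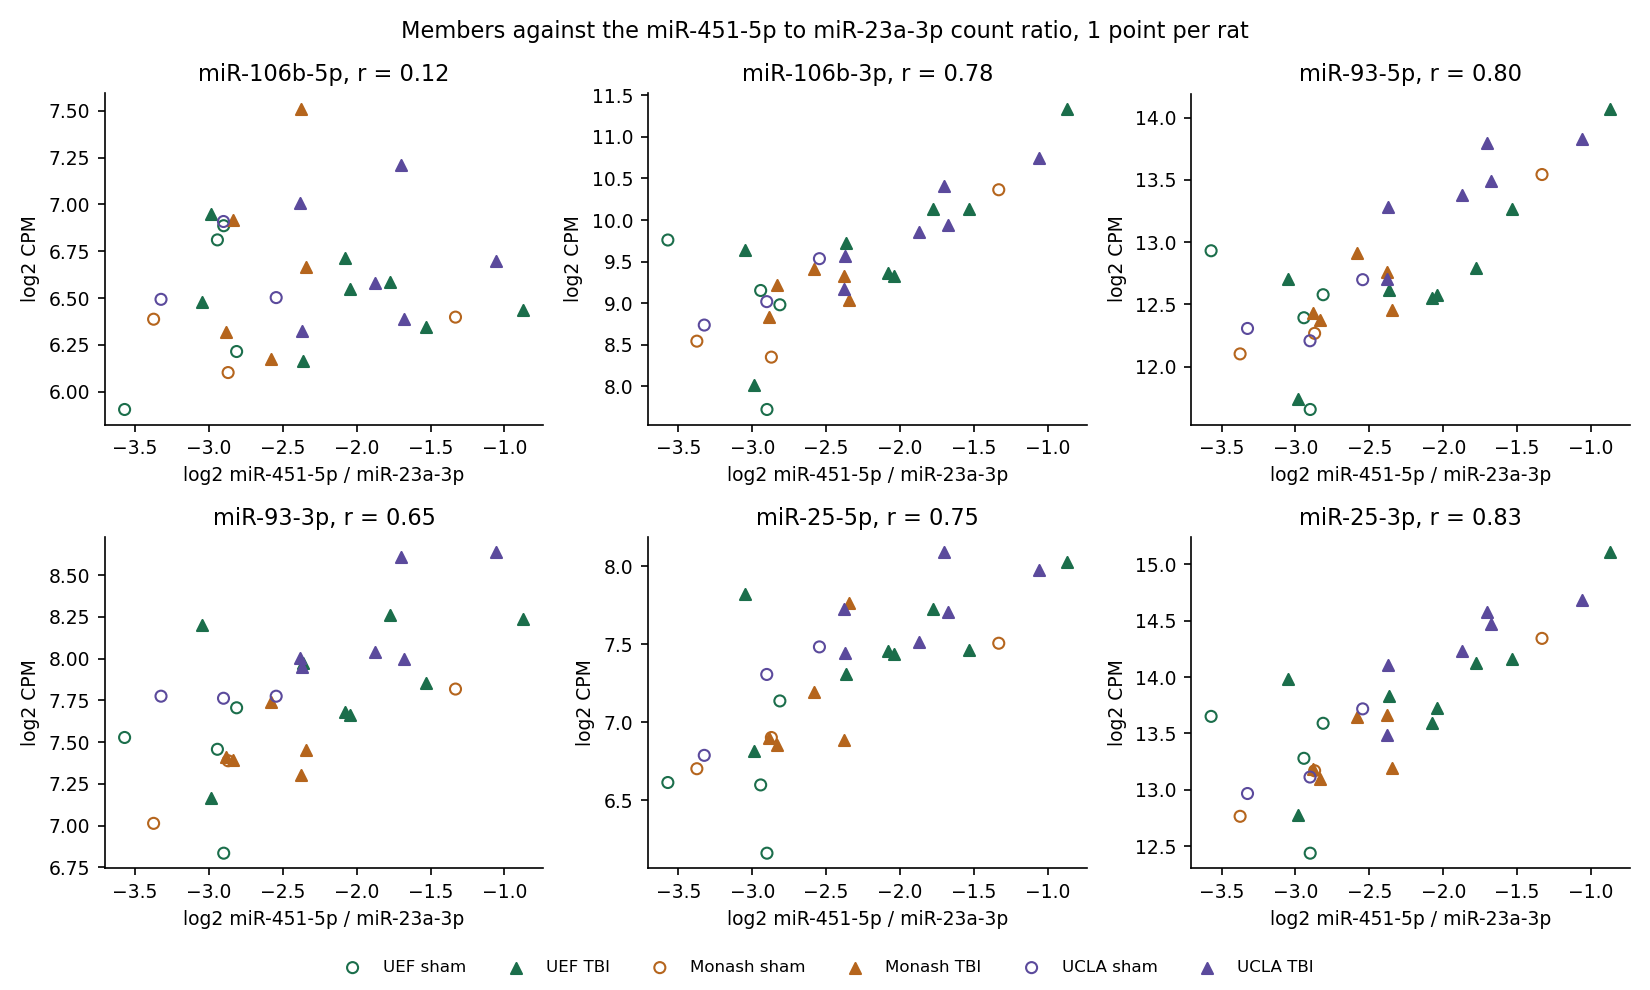
Log2 CPM of each member against the log2 ratio of miR-451-5p to miR-23a-3p counts, with 1 point per rat, colors for the sites, open circles for sham and triangles for TBI. The points of miR-25-3p rise along the ratio (r = 0.83), and those of miR-106b-5p form a cloud without a slope (r = 0.12).

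With this ratio added to the model, the log2 fold changes of TBI against sham shrank to −0.032 for miR-106b-3p, −0.021 for miR-93-5p and 0.067 for miR-25-3p. They were 0.16 for miR-93-3p and 0.28 for miR-25-5p. miR-106b-5p, the member unrelated to the ratio, had 0.21. The adjusted p of the members lay between 0.891 and 0.993 in edgeR, and 4 of 754 miRNAs were called. Whether red cell RNA accounts for the members' values was not tested.

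The red cell list held 7 miRNAs, both arms of miR-451, miR-144 and miR-16, and miR-486. Together they made up 6.83% of counts at the lowest, 23.2% at the median and 37.2% at the highest in sham rats (n = 10), and 21.97%, 32.7% and 43.2% in TBI rats (n = 19). The most abundant was miR-16-5p, and none was at 0 in any rat. In TBI against sham edgeR called 0 of 7 (1 at an unadjusted p under 0.05, and 1, miR-486, by DESeq2). All 7 had a log2 fold change above 0 and their median was 0.40, near that of the members. Without the UEF rats 6 of 7 were above 0 and the median was 0.27. It was 0.74 without the Monash rats, with 1 called by edgeR and 6 at an unadjusted p under 0.05. Without the UCLA rats it was 0.20. The median of the members was 0.31, 0.72 and 0.34 without UEF, Monash and UCLA in turn. With the miR-451-5p to miR-23a-3p ratio in the model 4 of 7 were above 0, with a median of 0.026. The 6 platelet and white cell miRNAs, led by miR-223-3p, had 0 called by edgeR (1 at an unadjusted p under 0.05, 0 by DESeq2) and a median of 0.13, which was −0.020 with that ratio in the model. Of the 3 liver miRNAs edgeR called 2 as lower, miR-122-5p (−1.65) and miR-194-5p (−1.52). miR-192-5p had −1.145 (adjusted p by edgeR = 0.0647). All 3 had an unadjusted p under 0.05, and the median was −1.52. With the miR-451-5p to miR-23a-3p ratio in the model edgeR called 0 of these 3, all 3 at an unadjusted p under 0.05, with a median of −1.33. Without the UEF rats it called 0 of 3, with 0 at an unadjusted p under 0.05 and a median of −0.37. It also called 0 of 3 with the replicate block and with TBIN or TBIE rats alone against sham, each time with 3 at an unadjusted p under 0.05. DESeq2 called 3 over all rats. Of the 5 brain miRNAs edgeR called 2 as higher, miR-128-3p (0.99) and miR-129-5p (0.94). All 5 were above 0 with an unadjusted p under 0.05, and the median was 0.61. Of these 5 edgeR called 1 with totals alone, with scaling to miR-28-3p and with the miR-451-5p to miR-23a-3p ratio in the model. It called 0 without the UEF rats (2 at an unadjusted p under 0.05), with TBIN rats alone against sham (3) and with TBIE rats alone against sham (4), while DESeq2 called 2 over all rats. The 3 muscle miRNAs had 0 called by edgeR (0 at an unadjusted p under 0.05, 0 by DESeq2) and a median of 0.45, the sign of which was not fixed. It was 0.12 with totals alone, 0.013 without the UEF rats, −0.0024 without site in the model, −0.024 with the replicate block and −0.19 for TBIE rats against sham. The median CPM of each was lower in TBI than in sham (miR-1-3p 115 and 216, miR-133a-3p, counted together with miR-133b-3p, 472 and 559, miR-206-3p 439 and 502). The reference miRNAs miR-28-3p and miR-23a-3p had 0 called by edgeR (0 at an unadjusted p under 0.05, 0 by DESeq2) and a median of −0.12, which became 0.015 with totals alone and 0.073 without the UEF rats.

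The miRNAs outside the cluster most like miR-25-3p and miR-93-5p over the 29 rats, by r of log2 CPM, were in part the same. For miR-25-3p they were miR-451-5p (r = 0.93), miR-15b-5p (0.89) and miR-15b-3p (0.87). For miR-93-5p they were miR-15b-3p (0.93), miR-451-5p (0.93) and miR-16-5p (0.92). For miR-106b-5p they were others, miR-6331 (0.69), miR-362-3p (0.65) and miR-300-5p (0.64), of which miR-300-5p had a median count of 15. For the rarer arm miR-25-5p the closest was miR-486, with r = 0.93. These likenesses are descriptions over 29 rats.

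Among the miRNAs with the seed AAAGUGC, as in the sequences given above, miR-93-5p supplied a median of 88.9% of the counts in a rat. Its share ran from 81.2% to 92.3% between rats. miR-20a-5p supplied 6.38%, miR-17-5p 2.24%, miR-106b-5p 1.21% and miR-20b-5p 0.599%. The counts with the shared seed were thus mainly those of miR-93-5p. Among the miRNAs with the seed AUUGCAC, miR-25-3p supplied a median of 39.5%, from 24.7% to 60.6% between rats. miR-92a-3p of the paralogous cluster supplied 55.3% and miR-92b-3p 4.06%, while miR-363-3p and miR-32-5p gave 0.229% and 0.0846%.

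The 23 related miRNAs, those of the paralogous clusters and of the shared seed families, were set beside the members. In TBI against sham edgeR called 0 of 23 (3 at an unadjusted p under 0.05, and 1, miR-18a-3p, by DESeq2), 19 of 23 were above 0, and the median log2 fold change was 0.19. Of these miRNAs 2, miR-19a-5p and miR-32-3p, had a count of 0 in at least 1 rat. The relatives nearest to miR-25-3p were miR-18a-3p (r = 0.86 over the 29 rats; log2 fold change 0.57, SE 0.18, adjusted p by edgeR = 0.113) and miR-17-1-3p (r = 0.84; 0.35, SE 0.23, adjusted p by edgeR = 0.660). miR-92a-3p, which has the seed of miR-25-3p, had r = 0.72 with it and a log2 fold change of 0.51 (SE 0.17; adjusted p by edgeR = 0.172). miR-17-5p, which has the seed of miR-93-5p, had 0.35 (SE 0.22; adjusted p by edgeR = 0.608).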

How the data were processed

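Counts of 754 miRNAs in plasma of 29 rats were used. Per the sources, RNA was extracted with a Qiagen serum and plasma kit, and QIAseq libraries with molecular identifiers were sequenced on a NextSeq. Reads were trimmed with cutadapt, aligned with Bowtie to Rnor_6.0 and annotated with miRBase. The values deposited by the authors are raw counts per mature miRNA without normalization. Whether reads with 1 molecular identifier were merged is not given in the sources used here, so counting precision is that of reads at best.

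The members and lists were chosen with earlier results of these data known. edgeR 4.0.16 (limma 3.58.1, R 4.3.3) was fitted to all miRNAs with TMM factors, a filter on groups at a minimum count of 10, which kept all 754, and site plus condition (sham, TBIN, TBIE) as terms. Quasi-likelihood F tests, two-sided in effect, were adjusted by Benjamini-Hochberg over 754 miRNAs with a threshold of 0.05. Each member stands in the text by name, with the related, red cell, platelet and white cell, liver, brain, muscle and reference lists summarized and the 3 miRNAs most like miR-106b-5p, miR-93-5p and miR-25-3p named.

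Log2 ratios used 0.5 added to each count. Ratio tests were two-sided exact permutation tests within strata. The arm ratios and the ratios between hairpins were adjusted apart, over 15 tests each. Correlations with the miR-451-5p to miR-23a-3p ratio used 100000 permutations and were adjusted over 752 miRNAs, all but the 2 in the ratio, in place of the 6 members first planned. Of the related miRNAs, those named with values were picked with the values in view, as was miR-486 beside miR-25-5p.

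The alternatives tried were DESeq2 1.42.0, RLE and upper-quartile factors, total counts, scaling to miR-28-3p, other count filters, models without the other factor, with injury in 2 levels or with the miR-451-5p to miR-23a-3p ratio, each site or rat left out, TBIN or TBIE rats alone against sham, sham or injured rats alone, a replicate block and 5 in place of 0.5 in the ratios. Procedures were tested on simulated data. Ratios, correlations and plots used scipy 1.17.1, matplotlib 3.10.9, pandas 2.3.3 and numpy 2.4.6 under Python 3.11.15.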

Additional observations from a re-analysis of the deposited data

Results flagged for a closer look

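Single rats that lay far from the rest of a group of 4 to 10 rats, by Dixon's test on CPM, gave 11 marks in 48 groups. In separate groups chance alone gives about 1 in 20. These groups share rats and most members vary together, so the marks cannot be set against that rate. The marks came from 3 rats.

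UEF TBIN 2 stood far above the other UEF TBIN rats in 4 members. It had 35233 CPM of miR-25-3p (next 14616), 17238 CPM of miR-93-5p (next 6295), 2591 CPM of miR-106b-3p (next 842) and 260.1 CPM of miR-25-5p (next 175). Its miR-451-5p to miR-23a-3p log2 ratio, −0.87, was the highest of the 29 rats, and its part in these values was not tested.

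Monash sham 2 stood above the other Monash rats with 1317 CPM of miR-106b-3p (next 679), 11939 CPM of miR-93-5p (next 7729.87 among Monash rats and 7810.17 among sham rats) and 20766 CPM of miR-25-3p (next 12954 at Monash and 13473 among sham rats). The last 2 members also marked it among the 10 sham rats. Its log2 ratio of miR-451-5p to miR-23a-3p was −1.33, the highest of the sham rats.

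Monash TBIN 2 had 182 CPM of miR-106b-5p, against a next value of 119.9 among the 8 Monash rats and 128 among the 10 TBIN rats. Its log2 ratio of −2.38 was near the median of all rats.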

How the results depend on the processing

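Of 1890 alternative values of the members' log2 fold changes, 1776 kept their sign and their side of the threshold, 87 turned over and 27 newly passed. Of 210 interaction tests of the members none newly passed (210 as reported). Of 940 ratio differences 882 kept both, 44 turned over, 13 lost their call and 1 newly passed. Of 496 counts of calls 429 stayed within 1.5 times the reported count and 67 did not. Most reversals concerned log2 values near 0. No filter on groups removed a miRNA, so using none gave the same values. Scaling to miR-28-3p moved the median log2 fold change of all miRNAs in TBIE against TBIN by 0.14. No other scaling moved a median by over 0.1 in a comparison over all sites, but within sites totals alone moved that of TBI against sham from 0.0093 to 0.43 at UEF, from 0.048 to 0.18 at Monash and from 0.022 to −0.47 at UCLA. Of the 3 alternatives chosen after seeing the data, 1 concerns ratios and is given below. The others were the members' spread with totals alone, where miR-106b-5p had the highest SD (0.68), and the difference in the miR-451-5p to miR-23a-3p ratio at Monash without each rat (−0.50 to 0.52). The causes of the changes below were not tested, except that leaving out rats or miRNAs tests fewer of them. Depth did not leave any member under 102 counts.

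With DESeq2, TBI against sham called 25 miRNAs and 1 member (miR-25-5p, 0.51), UEF against Monash 110 miRNAs, Monash against UCLA 1 member (miR-93-3p, −0.59) and the interaction 17 miRNAs, and miR-93-3p in TBIE against TBIN was 0.016. With RLE factors that value was 0.015, and miR-93-3p in TBI against sham at Monash was −0.0066. With upper-quartile factors Monash against UCLA called 1 member (miR-93-3p, −0.65), miR-106b-5p in TBIE against TBIN was −0.0099, and miR-25-5p at UEF passed (0.92).

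With total counts alone UEF against Monash called 33 miRNAs and the interaction 15. miR-93-3p in TBIE against TBIN was 0.057 and miR-93-5p in UEF against Monash −0.084. TBI against sham at UEF passed for miR-106b-3p (1.34), miR-93-5p (0.88), miR-93-3p (0.89), miR-25-5p (1.23) and miR-25-3p (1.10). At Monash miR-106b-3p was 0.10, miR-93-5p 0.053 and miR-25-3p 0.028, and at UCLA miR-106b-5p was −0.42 and miR-93-3p −0.060. The correlation with the miR-451-5p to miR-23a-3p ratio was −0.059 for miR-106b-5p, 0.39 for miR-93-3p and 0.45 for miR-25-5p, the last pair no longer passing. With scaling to miR-28-3p, miR-93-3p in TBIE against TBIN was 0.11, UEF against Monash called 21 miRNAs, and miR-106b-5p there was 0.019.

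Testing only miRNAs that reached 10 counts in each rat called 17 miRNAs in TBI against sham, 3 in the interaction and 1 member (miR-93-3p, −0.61) in Monash against UCLA. miR-106b-5p in TBIE against TBIN was −0.013 and in TBI against sham at UCLA −0.067, miR-93-3p at Monash was −0.056, and miR-25-5p at UEF passed (0.86). Without the other factor TBI against sham called 15 miRNAs, and miR-93-3p in TBIE against TBIN was 0.023. With the miR-451-5p to miR-23a-3p ratio in the model TBI against sham called 4 miRNAs and Monash against UCLA 23. miR-106b-3p and miR-93-5p in TBI against sham were −0.032 and −0.021. In TBIE against TBIN miR-106b-3p was 0.028, miR-93-5p 0.027, miR-93-3p 0.061 and miR-25-3p 0.057, and in UEF against UCLA miR-106b-3p was 0.086.

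Without the UEF rats TBI against sham called 0 miRNAs by edgeR, and TBIE against TBIN was −0.049 for miR-106b-5p, 0.050 for miR-93-5p and 0.038 for miR-25-3p. Without the Monash rats TBI against sham called 21 miRNAs and 1 member (miR-25-5p, 0.73), and miR-25-5p in TBIE against TBIN was −0.038. Without the UCLA rats it called 15 miRNAs, and miR-93-3p in TBIE against TBIN was 0.042. TBIN rats against sham called 1 miRNA and TBIE rats against sham 2.

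Among sham rats UEF against Monash called 38 miRNAs, UEF against UCLA 38 and Monash against UCLA 22. There, UEF against Monash was 0.19 for miR-106b-5p, −0.35 for miR-106b-3p, −0.36 for miR-93-5p, −0.052 for miR-93-3p, −0.43 for miR-25-5p and −0.30 for miR-25-3p. UEF against UCLA was 0.012 for miR-93-5p, and Monash against UCLA was 0.26 for miR-106b-3p, 0.37 for miR-93-5p and 0.28 for miR-25-3p. Among injured rats the site pairs called 0, 38 and 23 miRNAs by edgeR, and miR-106b-5p in Monash against UCLA was 0.11. A replicate block gave 5 miRNAs in TBI against sham and 30 in UEF against Monash, and 0.096 for miR-106b-3p in UEF against UCLA. Rats of the same number in different groups did not vary together (median r of their deviations −0.0067 over 103 pairs, from −0.42 to 0.40), so the numbers pair no rats.

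The alternative for the ratios chosen after seeing the data put miR-106b-3p in place of miR-106b-5p in the ratios. To miR-93-5p it gave 0.15 in TBI against sham, −0.051 in TBIE against TBIN, 0.24 in UEF against Monash and −0.062 in Monash against UCLA, and to miR-25-3p 0.054 in TBI against sham and −0.055 in TBIE against TBIN, each of the opposite sign to that with miR-106b-5p.

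Leaving out each rat in turn, the miRNAs called ran from 5 (without UEF sham 2, UEF sham 3, UEF TBIE 1 or UEF TBIE 3) to 16 (without Monash sham 2) in TBI against sham, 34 to 116 in UEF against Monash, 23 to 58 in Monash against UCLA and 0 to 10 in the interaction by edgeR. Members called ran from 0 to 2 in TBI against sham and 0 to 1 in Monash against UCLA. In TBI against sham miR-25-5p ran from 0.47 to 0.66 and miR-25-3p from 0.43 to 0.74, both highest and passing without Monash sham 2. miR-106b-3p ran from 0.43 to 0.87, miR-93-5p from 0.35 to 0.65, miR-93-3p from 0.29 to 0.45 and miR-106b-5p from 0.11 to 0.26 without passing. In TBIE against TBIN miR-106b-5p ran from −0.034 to 0.16, miR-106b-3p from −0.32 to 0.072, miR-93-5p from −0.22 to 0.058, miR-93-3p from −0.066 to 0.062, miR-25-5p from 0.0092 to 0.17 and miR-25-3p from −0.21 to 0.064. In UEF against Monash miR-106b-5p ran from −0.18 to 0.088, miR-106b-3p from 0.072 to 0.69, miR-25-3p from 0.088 to 0.52, miR-93-5p from −0.15 to 0.28 and miR-25-5p from −0.014 to 0.18. In UEF against UCLA miR-106b-3p ran from −0.34 to 0.026, miR-106b-5p from −0.23 to −0.11 and miR-25-3p from −0.36 to −0.12. In Monash against UCLA miR-106b-5p ran from −0.27 to 0.010, miR-106b-3p from −0.80 to −0.28, miR-93-5p from −0.65 to −0.32, miR-25-3p from −0.73 to −0.38 and miR-93-3p from −0.68 to −0.51.

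Within sites, leaving out each rat gave for TBI against sham at UEF −0.068 to 0.24 for miR-106b-5p, 0.28 to 0.68 for miR-93-5p and 0.74 to 1.19 for miR-25-5p, which passed in 11 of 29 cases. At Monash it gave 0.25 to 0.65 for miR-106b-5p, −0.55 to 0.74 for miR-106b-3p, −0.44 to 0.42 for miR-93-5p, −0.15 to 0.25 for miR-93-3p, −0.12 to 0.39 for miR-25-5p and −0.49 to 0.39 for miR-25-3p. At UCLA miR-106b-5p ran from −0.058 to 0.24. The 5p to 3p ratio of miR-106b ran from −0.64 to −0.22 in TBI against sham, from −0.62 to −0.19 in UEF against Monash, from 0.24 to 0.63 in Monash against UCLA, from −0.017 to 0.41 in TBIE against TBIN and −0.15 to 0.22 in UEF against UCLA. That of miR-93 ran from −0.18 to 0.0061 in TBIE against TBIN, and that of miR-25 from −0.073 to 0.064 in TBI against sham and from −0.091 to 0.19 in Monash against UCLA. miR-106b-5p to miR-93-5p ran from −0.30 to 0.014 in UEF against Monash, and miR-106b-5p to miR-25-3p from −0.0025 to 0.35 in TBIE against TBIN and from −0.094 to 0.21 in UEF against UCLA. miR-93-5p to miR-25-3p ran from −0.034 to 0.023 in TBIE against TBIN, from −0.28 to −0.23 in UEF against Monash and from −0.22 to −0.16 in UEF against UCLA.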
